A study of Mus musculus with 15 samples.

Results

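The genes described here are 9 that are commonly used to follow epithelial-mesenchymal transition: the transcription factor genes Snai1, Snai2, Zeb1 and Zeb2, the cadherin genes Cdh1 and Cdh2, and the mesenchymal marker genes Vim, Fn1 and S100a4. They were taken by symbol from the platform annotation, counting only probe sets with a single gene symbol. Each was measured by exactly 1 probe set, so all 9 were tested, among 19297 genes in all.

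Expression was measured on 15 arrays of Myc-CaP cells, a line grown from a mouse prostate cancer driven by a Myc transgene, after transfection, selection and growth to confluence. VEC cells carry the empty vector, WT cells wild-type Twist1, and the other groups the Twist1 forms AQA, DQD and F191G, with 3 arrays a group labelled A, B and C. F191G changes a phenylalanine of the Twist box, a conserved stretch near the end of the protein, while the labels do not spell out the changes behind AQA and DQD. All cells, VEC included, share the Myc-CaP background and selection, and neither the promoter driving Twist1 nor whether the cells were clones or pools is given in the sources used here. Whether the 3 arrays of a group are separate cultures is not stated, so every p-value speaks only for array-to-array spread, which could be technical.

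In epithelial-mesenchymal transition, epithelial cells loosen their junctions and gain a motile, fibroblast-like state. Twist1, Snai1, Snai2, Zeb1 and Zeb2 are transcription factors known to drive it. They bind E-boxes, short DNA motifs of the form CANNTG, and Snail and Zeb proteins repress the E-cadherin gene Cdh1 through them. Loss of E-cadherin, gain of N-cadherin (Cdh2) and higher vimentin (Vim), fibronectin (Fn1) and S100a4 are the textbook readouts, and in prostate cancer this programme has been tied to invasion and metastasis.

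S100a4, a mesenchymal marker, was lower in cells with Twist1 than in VEC cells, by 0.42 in WT and by 0.62 in DQD on the log2 scale. Of the other 8 genes, none passed the test against VEC in any of the 4 forms. Few genes of the whole array passed it either: 12.8% (WT), 0.881% (AQA), 0.814% (DQD) and 0.0985% (F191G). The absence of calls is therefore not read as particular to these 8. Between forms, Cdh1, Snai1 and Zeb1 were each about 0.26 to 0.27 lower in DQD than in WT, in a comparison in which 24.5% of all genes were called. Called here means a limma adjusted p (Benjamini-Hochberg over the 19297 genes) under 0.05. All of these calls depended on how the arrays were modelled, as given beside each, and none held under every alternative setting. With 8 residual degrees of freedom, explained below, S100a4 was called neither in WT (limma adjusted p = 0.0504) nor in DQD (limma adjusted p = 0.0983).

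Both promoters below are shown because S100a4 was called against VEC, and Snai1 between forms, and because Twist1 and Snail proteins bind E-boxes. The letters run over the 250 bases before the annotated start, plus strand, RefSeq, build GRCm38.p6, and capitals mark a match to CANNTG. S100a4 lies on chromosome 3 from 90603770 to 90606045 and its promoter window is chr3:90603520-90603769. Snai1 lies on chromosome 2 from 167538195 to 167542814 with the window chr2:167537945-167538194. Of the 9 genes, 4 had an entry in the promoter table used: Snai1, Zeb2, Vim and S100a4.
S100a4: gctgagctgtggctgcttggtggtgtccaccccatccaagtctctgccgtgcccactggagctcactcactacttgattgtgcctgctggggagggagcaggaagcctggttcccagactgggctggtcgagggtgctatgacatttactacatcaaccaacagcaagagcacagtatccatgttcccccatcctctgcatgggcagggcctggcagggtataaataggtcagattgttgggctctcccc
Snai1: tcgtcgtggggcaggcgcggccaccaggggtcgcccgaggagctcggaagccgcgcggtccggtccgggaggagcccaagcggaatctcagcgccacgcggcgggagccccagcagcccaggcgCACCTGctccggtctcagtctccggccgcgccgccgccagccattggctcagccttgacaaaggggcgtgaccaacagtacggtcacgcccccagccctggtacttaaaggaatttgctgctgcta
The Snai1 window held 1 match to CANNTG, with the letters CACCTG, that began 126 bases before the start. On both strands, CANNTG occurred in 66.2% of the 32851 promoter windows of this length, and CACCTG, which is one form of it, in 17.2%. The S100a4 window held no match to CANNTG, which says only that these letters are not in this window. Neither window held CATATG, a form found in 3.46% of all windows, and neither held the form CAGATG, found in 14.4%. A match is a description of the letters and not a binding site.

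Over the 15 arrays, the lowest and highest deposited log2 values lay 0.25 apart for Fn1, 0.28 for Zeb2, 0.35 for Cdh1 and Cdh2, 0.39 for Snai2, 0.40 for Snai1, 0.44 for Zeb1, 0.48 for Vim and 0.9998 for S100a4. The median such range over all genes was 0.46. S100a4 had a wider range than 90.8% of genes, and Fn1 than 6.56%. S100a4 therefore varied most among the 9, and the other 8 lay near or below the middle of all genes.

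**Figure D1:**
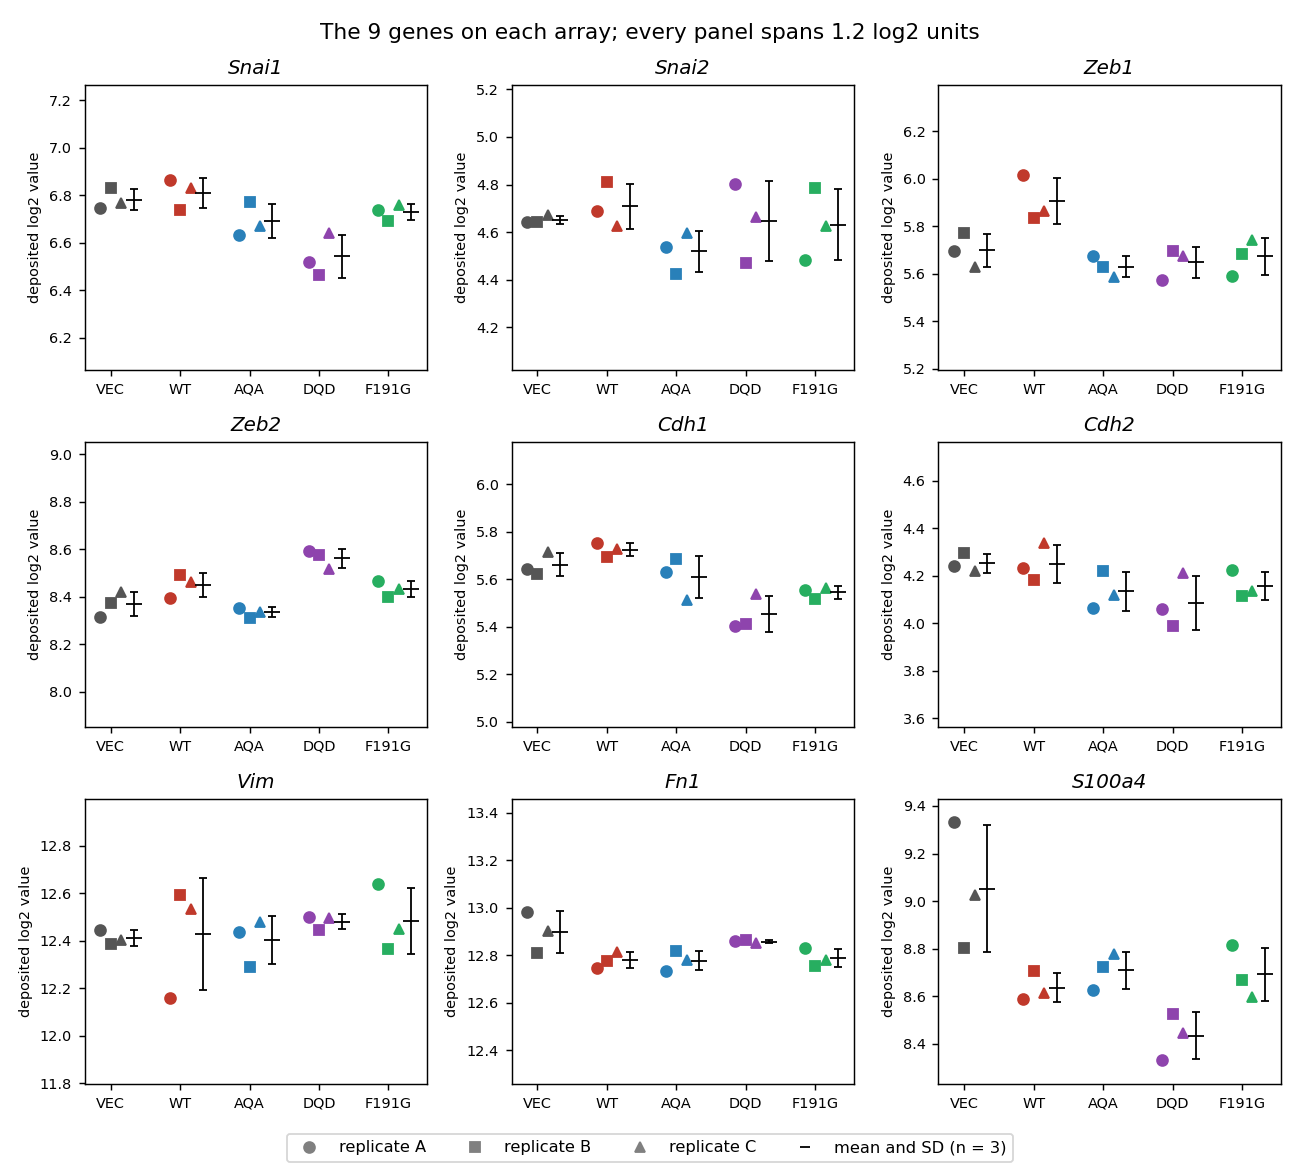
Deposited log2 values of the 9 genes on each of the 15 arrays, by group, with the mean and SD of 3 arrays; every panel spans 1.2 log2 units, so heights can be set against each other. S100a4 spans 8.33 to 9.33, from DQD A to VEC A, while Fn1 stays between 12.74 and 12.98.

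Twist1 itself read 6.45, 6.71 and 6.13 in VEC and 6.77, 6.85 and 6.75 in WT. AQA arrays read 6.87, 6.41 and 6.75, DQD arrays 6.62, 6.74 and 6.97, and F191G arrays 6.65, 6.85 and 6.76. Of the 12 arrays with a Twist1 form, 9 lay above the highest VEC array, and the groups overlapped for AQA, DQD and F191G. WT was 0.36 from VEC (SE 0.147, limma adjusted p = 0.129). The labels cannot be checked with these values: the stretch of transcript under the probe set is not given, and the design text names a normalization by Twist1 expression of unstated form.

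The cells were set against marker genes of the labelled cell type. The luminal and epithelial genes Foxa1 (10.97 to 11.38), Cldn3 (10.57 to 10.95) and Krt8 (7.35 to 8.89) read above the array medians of 6.31 to 6.42 on every array. Epcam (4.82 to 5.15), Krt18 (5.58 to 6.04) and the androgen-regulated Pbsn (2.05 to 2.24) read below them. Cdh1, Cdh2, Snai2 and Zeb1 also stayed below the medians, and Vim, Fn1, Zeb2, S100a4 and Snai1 above them. Probe sets differ in brightness and no detection calls were used here, so a low value cannot be read as absence. The mean of the fibroblast and endothelial markers (12 genes) ran from 5.04 to 5.06 in VEC, 5.05 to 5.11 in WT, 4.99 to 5.04 in AQA, 4.89 to 5.01 in DQD and 4.97 to 4.99 in F191G. In whole-culture RNA, fewer cells of a type and less RNA per cell cannot be told apart.

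A property of the deposited values bears on every p given here. In all 23811 probe sets the difference between the labelled batches A and B, at equal group, was 0 to within 5e-09, and a second direction of variation within groups was likewise absent to within 9e-09. As deposited, the values thus carried no batch difference and no variation along 1 further direction, which left 8 residual degrees of freedom where the planned model counts 9. Which term the second was is unstated, and whether its removal also moved differences between groups was not tested. Where 8 degrees of freedom end a call or change a count of calls, the adjusted p or count they give stands beside it.

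S100a4 encodes a calcium-binding protein of motile cells, also known as fibroblast-specific protein, and is a widely used marker of metastatic capacity. Its VEC arrays read 9.33, 8.80 and 9.03, its WT arrays 8.59, 8.71 and 8.61, and its AQA arrays 8.62, 8.72 and 8.78. DQD arrays read 8.33, 8.53 and 8.44, and F191G arrays 8.81, 8.67 and 8.60. Every WT, AQA and DQD array lay below every VEC array, as did all but 1 of the F191G arrays, so 11 of the 12 arrays with Twist1 were below the lowest VEC array.

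Against VEC (9.05 ± 0.27, SD, n = 3), S100a4 in WT (8.64 ± 0.06) fell by 0.42 (SE 0.113, 95% interval -0.66 to -0.17, limma adjusted p = 0.0317). It was the only 1 of the 9 genes called in WT against VEC, where 12.8% of all genes were called. With 8 residual degrees of freedom the adjusted p was 0.0504, so none of the 9 was called beside 8.27% of all genes. VEC replicate A held the highest value, and without it the difference was -0.27 (adjusted p = 0.0959). Within batch A, between WT A and B and VEC A and B, the difference was -0.42. Within batch B it was -0.41, between WT C and VEC C alone.

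In DQD (8.43 ± 0.10) S100a4 fell by 0.62 against VEC (SE 0.115, 95% interval -0.87 to -0.37, limma adjusted p = 0.0459), the largest difference of any of the 9 genes in any of the 4 comparisons with VEC. It was again the only 1 of the 9 called, against 0.814% of all genes. With 8 residual degrees of freedom the adjusted p was 0.0983, and 0.00518% of all genes, a single one, were then called. After a level-dependent normalization, described below for DQD against WT, the adjusted p was 0.0531. Within batch A, where DQD A was the only DQD array, the difference was -0.73. Within batch B, where VEC C was the only VEC array, it was -0.54. The DQD and VEC arrays did not overlap for 5 of the 9 genes, beside 34.8% of all genes: S100a4, Cdh1, Cdh2 and Snai1 below and Zeb2 above. AQA (8.71 ± 0.08) differed from VEC by -0.34 (SE 0.113, adjusted p = 0.163) and F191G (8.69 ± 0.11) by -0.36 (SE 0.115, adjusted p = 0.268). Without VEC replicate A these differences were -0.20 and -0.23. None of the 9 genes was called in AQA, with 0.881% of all genes called, or in F191G, with 0.0985% called. By an unadjusted p under 0.05, 1 of the 9 passed in each, S100a4, beside 15.7% of all genes in AQA and 11.7% in F191G. Arrays did not overlap with VEC for 2 of the 9 in AQA (S100a4 and Snai2, beside 25.8%) and for 1 in F191G (Cdh1, beside 21.1%).

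Over the 4 Twist1 forms together, S100a4 was 0.43 below VEC (difference -0.43, SE 0.0899, limma adjusted p = 0.0398), where 1.18% of all genes were called. In the test for any difference among the 5 groups it had a moderated F of 7.57 (limma adjusted p = 0.0389), with 10.1% of genes called. With 8 residual degrees of freedom these adjusted p-values were 0.0777 and 0.0741. Median centring ended the call for the 4 forms (adjusted p = 0.0578), and without VEC replicate A the difference was -0.30 (adjusted p = 0.0960). The other 8 genes were called in neither, and none of the 9 had all 12 Twist1 arrays on 1 side of the VEC arrays, beside 2.68% of all genes. The direction of S100a4 against VEC was kept in each of the 4 forms under all 27 alternative settings. Many of these settings leave the difference unchanged or nearly so, and the forms share the same VEC arrays, so they are not separate checks.

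Genes listed as markers of basal epithelial cells, a cell type that a prostate culture could hold, also lay below VEC, by uneven amounts. All 6 listed genes (Krt5, Krt14, Krt15, Krt6a, Krt17 and Trp63) had group means below VEC in each of the 4 forms, and the list medians for WT, AQA, DQD and F191G were -0.58, -0.73, -0.44 and -0.43, beside -0.01, -0.04, -0.05 and -0.03 over all genes. Their mean log2 value ran from 6.27 to 7.11 over the VEC arrays and from 5.78 to 6.20 over the 12 arrays with Twist1. Called lower were 2 of the 6 in WT, beside 5.72% of all genes called lower and 12.8% called either way. In AQA and in DQD 1 was called lower, beside 0.368% and 0.399% lower and 0.881% and 0.814% either way, and in F191G none. The keratin gene Krt15 fell in WT (-1.73, adjusted p = 0.00462), AQA (-1.66, adjusted p = 0.0210) and DQD (-1.38, adjusted p = 0.0474, and 0.0983 with 8 residual degrees of freedom). Krt6a fell by 1.36 in WT (adjusted p = 0.0178). Whether the cultures held basal cells, and the part of such cells in the S100a4 values, was not tested.

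The forms did not separate by S100a4 beyond the test. DQD differed from WT by -0.20 (SE 0.115, limma adjusted p = 0.202) although every DQD array lay below every WT array. AQA differed from WT by 0.07 (95% interval -0.17 to 0.32) and F191G by 0.06 (95% interval -0.19 to 0.31). In the order of group means, VEC stood highest, followed by AQA, F191G, WT and DQD, and of these neighbours, AQA and F191G, and F191G and WT, differed by less than either SD.

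Most genes of the S100 family sit in a cluster, and most encode small calcium-binding proteins. Of 15 further genes listed for this family, which include S100pbp, the gene of a protein that binds S100P, 1 (6.67%) was called in each of WT, AQA and DQD against VEC, beside 12.8%, 0.881% and 0.814% of all genes. That gene was S100a16, which fell by 0.72 in WT (SE 0.0907, adjusted p = 0.00237), by 0.66 in AQA (adjusted p = 0.0123) and by 0.53 in DQD (adjusted p = 0.0454, and 0.0983 with 8 residual degrees of freedom). The genes whose values over the 15 arrays were most like those of S100a4 were Myl6 (r = 0.92), Krt19 (r = 0.89) and Cuta (r = 0.87), as a description over arrays that share the batch adjustment and the groups.

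**Figure D2:**
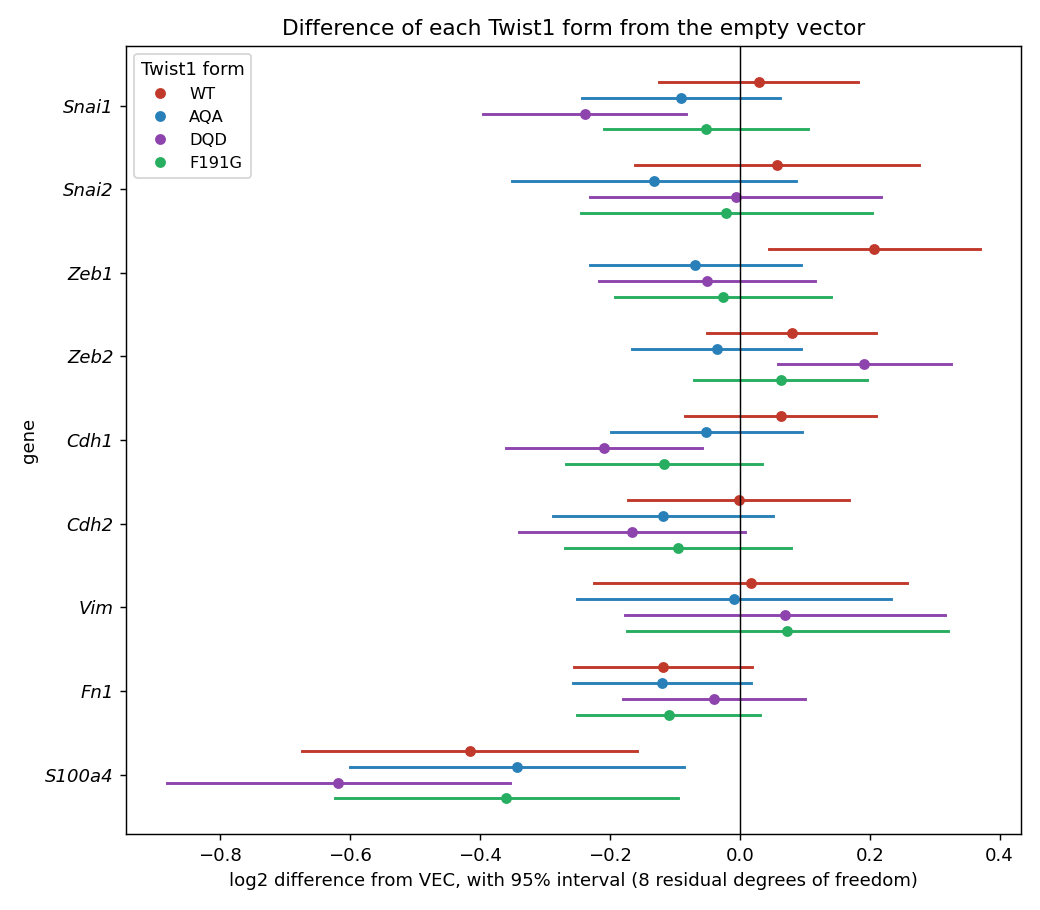
Log2 difference of each Twist1 form from VEC for the 9 genes, with 95% intervals from the model with 8 residual degrees of freedom. The 4 S100a4 intervals lie below 0; the intervals of the other genes stay between -0.40 and 0.37.

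In the deposited values the other 8 genes stayed close to VEC in every form. Their 32 differences from VEC ran from -0.24 to 0.21, and the lowest adjusted p was 0.0657 (limma). With 8 residual degrees of freedom, the 95% intervals reached from 0.760-fold to 1.29-fold of VEC, so changes beyond those bounds lay outside every interval. A p that misses the threshold does not show that the values were equal.

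Among the transcription factor genes, Zeb1, a zinc finger repressor of epithelial genes, had the largest WT value relative to VEC. VEC arrays read 5.70, 5.77 and 5.63 and WT arrays 6.02, 5.84 and 5.87, while AQA read 5.68, 5.63 and 5.59, DQD 5.57, 5.70 and 5.67, and F191G 5.59, 5.68 and 5.74. The 3 WT arrays lay above all 12 others, and the other 4 groups overlapped. The share of all genes set apart from all 12 in this way was not counted. WT differed from VEC by 0.21 (SE 0.0692, limma adjusted p = 0.0657). WT against VEC left 2 of the 9 genes without overlap between groups, Zeb1 and S100a4, against 31.6% of all genes.

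Snai1 encodes Snail, the factor best known for repressing Cdh1. VEC arrays read 6.75, 6.83 and 6.77, WT 6.86, 6.74 and 6.83, AQA 6.63, 6.77 and 6.67, DQD 6.52, 6.46 and 6.64, and F191G 6.74, 6.69 and 6.76. DQD arrays lay below all VEC, WT and F191G arrays, and VEC, WT and F191G overlapped. DQD differed from VEC by -0.24 (SE 0.0663, limma adjusted p = 0.0724) and WT by 0.03 (adjusted p = 0.840).

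Zeb2, the relative of Zeb1 that represses many of the same targets, ran the other way in DQD. VEC arrays read 8.32, 8.37 and 8.42, WT 8.40, 8.49 and 8.46, AQA 8.35, 8.31 and 8.34, DQD 8.59, 8.58 and 8.52, and F191G 8.47, 8.40 and 8.43. The DQD arrays lay above all 12 others. For DQD and VEC alone, 34.8% of all genes had arrays that did not overlap, and the share set apart from all 12 was not counted. DQD was 0.19 from VEC (SE 0.0553, limma adjusted p = 0.0777). Snai2, the gene of the Snail relative Slug, ran from 4.43 (AQA B) to 4.81 (WT B), with its groups overlapping except that AQA lay below VEC and WT.

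The cadherin genes were read next to each other because a switch from Cdh1 to Cdh2 is the classical sign of the transition. Cdh1, the E-cadherin gene, read 5.64, 5.62 and 5.72 in VEC, 5.75, 5.70 and 5.73 in WT, 5.63, 5.69 and 5.51 in AQA, 5.40, 5.41 and 5.54 in DQD, and 5.55, 5.51 and 5.56 in F191G. Its DQD and F191G arrays lay below all VEC and all WT arrays. Against VEC, DQD differed by -0.21 (SE 0.0635, limma adjusted p = 0.0865) and F191G by -0.12 (adjusted p = 0.505).

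Cdh2, the N-cadherin gene, read 4.24, 4.30 and 4.22 in VEC, 4.23, 4.18 and 4.34 in WT, 4.06, 4.22 and 4.12 in AQA, 4.06, 3.99 and 4.21 in DQD, and 4.22, 4.11 and 4.13 in F191G. Its DQD arrays lay below the VEC arrays, and the remaining groups overlapped with VEC. The 4 differences from VEC ran from -0.17 to -0.002, none called. No form showed a lower Cdh1 together with a higher Cdh2 among called genes. Of 17 other genes listed as cadherins and catenins, none was called in any of the 9 comparisons (limma). By an unadjusted p under 0.05, 3 of them passed in WT against VEC, beside 27.6% of all genes. The list does not hold Jup, the gene of plakoglobin (gamma-catenin). Jup is counted with the epithelial genes below and was called lower in DQD against WT.

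Vim and Fn1 encode the intermediate filament vimentin and the matrix protein fibronectin. Vim read 12.45, 12.38 and 12.40 in VEC, 12.16, 12.59 and 12.53 in WT, 12.44, 12.29 and 12.48 in AQA, 12.50, 12.44 and 12.50 in DQD, and 12.64, 12.37 and 12.45 in F191G. All groups overlapped, and WT replicate A held the lowest value. Fn1 read 12.98, 12.81 and 12.90 in VEC, 12.75, 12.78 and 12.81 in WT, 12.74, 12.82 and 12.78 in AQA, 12.86, 12.87 and 12.85 in DQD, and 12.83, 12.76 and 12.78 in F191G. Of the 12 arrays with Twist1, 6 lay below the lowest VEC array and none above the highest, and the WT difference was -0.12 (SE 0.0573, limma adjusted p = 0.203).

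The wider programme was described with gene lists. Of 29 other regulators of the transition, 6 rose and none fell in WT against VEC (20.7% of the list, beside 12.8% of all genes). With 8 residual degrees of freedom 3 rose and none fell, beside 8.27% of all genes. They included the collagen receptor gene Ddr2 (0.56, SE 0.0788, adjusted p = 0.00417), the E-box factor gene Tcf4 (0.56, SE 0.0892, adjusted p = 0.00546) and Sox4 (0.63, SE 0.151, adjusted p = 0.0205). The median over the list was 0.06, beside -0.01 over all genes.

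Of 46 mesenchymal genes, none rose and 4 fell in WT (8.7% of the list, below the 12.8% of all genes), with a list median of -0.05. The protease inhibitor gene Timp1 fell by 1.16 (adjusted p = 0.0191), and the calls of Itgb3, Itga5 and Cd44 ended with 8 residual degrees of freedom (adjusted p = 0.0601, 0.0637 and 0.0669), which left 1 lower. Of 38 epithelial genes, 1 rose and 3 fell (10.5% of the list, also below the 12.8% of all genes), or 1 and 2 with 8 residual degrees of freedom. The protease gene Prss8 rose by 1.65 (adjusted p = 0.0185), while the keratin gene Krt19 fell by 2.13 (adjusted p = 0.0225) and the tight junction gene Cldn1 by 0.79 (adjusted p = 0.0201). The arrays of a group were uneven for some of these genes. The SD (n = 3) was 1.57 for Krt19 in VEC, 0.91 for Prss8 in WT and 0.71 for Timp1 in WT. For Cldn1 it was 0.05 in VEC and 0.16 in WT. These lists were written with earlier results of these data known and are counts, not tests of a list.

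In DQD against WT, Cdh1, Snai1 and Zeb1 were lower in DQD, and their values on each array stand above. Cdh1 differed by -0.27 (SE 0.0635, 95% interval -0.41 to -0.14, limma adjusted p = 0.0155), Snai1 by -0.27 (SE 0.0663, adjusted p = 0.0184) and Zeb1 by -0.26 (SE 0.0709, adjusted p = 0.0242). For each, all 3 DQD arrays lay below all 3 WT arrays. With 8 residual degrees of freedom the adjusted p-values were 0.0294, 0.0329 and 0.0406, with 17.1% of all genes called.

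The 3 of 9 genes called stand beside 24.5% of all genes called in this comparison, and beside 12.8% called lower, so the count is not read as particular to these genes. Of the 9 genes, 6 had DQD and WT arrays that did not overlap, beside 48.2% of all genes: Cdh1, Snai1, Zeb1 and S100a4 below and Zeb2 and Fn1 above. Neither Cdh2 (-0.16, adjusted p = 0.116) nor Vim (0.05, adjusted p = 0.732) was called.

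The whole array moved with level in this comparison. With genes split by mean value into 3 sets of equal size, the median difference was -0.09 in the low set, -0.11 in the middle set and 0.09 in the high set, and 9.65%, 26.3% and 37.6% of genes were called in them. Cdh1, Snai1 and Zeb1 all belong to the middle set, and Fn1, S100a4, Vim and Zeb2 to the high set. After a normalization that removes level-dependent shifts, chosen after the data were seen, the differences were -0.14 for Cdh1 (adjusted p = 0.0748), -0.20 for Snai1 (adjusted p = 0.0392) and -0.13 for Zeb1 (adjusted p = 0.176), so 1 of the 9 was called beside 17% of all genes. With the further term added to that normalization, Snai1 was not called either (adjusted p = 0.0652). Centring each array on its median moved all differences of this comparison by 0.11, ended the 3 calls (adjusted p = 0.0658, 0.0818 and 0.122) and brought calls for Zeb2 (0.22, adjusted p = 0.0214) and Fn1 (0.19, adjusted p = 0.0489). With centring 80.8% of the called genes were higher in DQD, against 48.0% without.

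**Figure D3:**
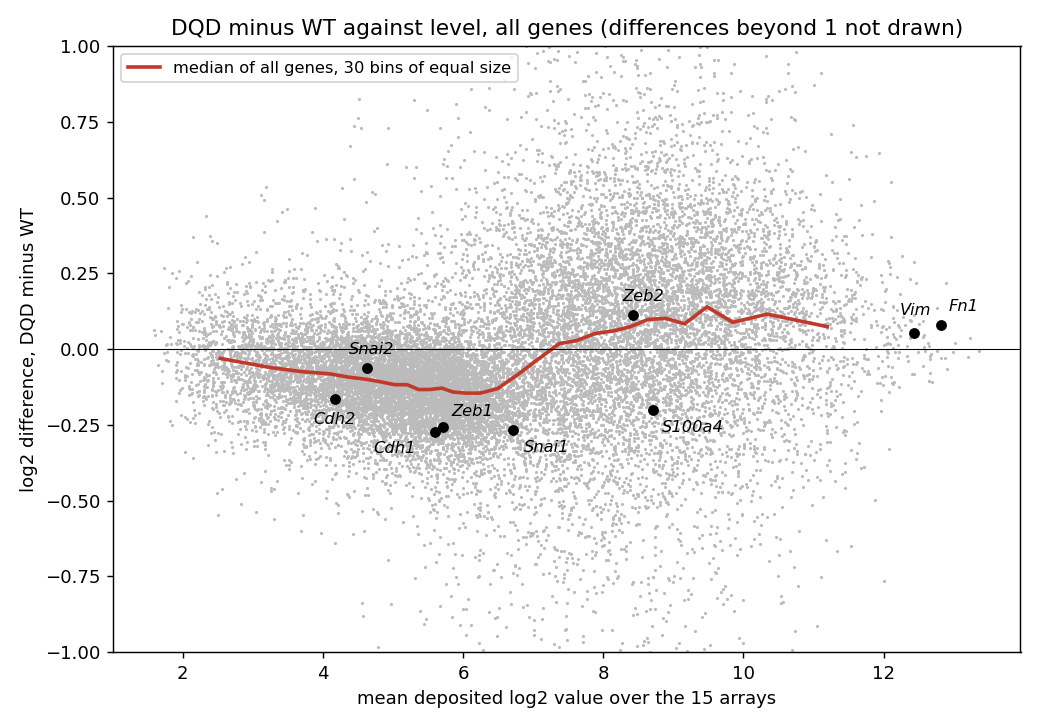
Difference DQD minus WT of each of the 19297 genes against its mean deposited log2 value, with the median in 30 bins of equal size and the 9 genes named (307 genes beyond 1 in size are not drawn). The median lies below 0 at low and middle values and above 0 at high values, and Cdh1, Snai1 and Zeb1 lie below it.

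Within batch A, where DQD A was the only DQD array, the differences of Cdh1, Snai1 and Zeb1 were -0.32, -0.28 and -0.35. Within batch B, where WT C was the only WT array, they were -0.25, -0.27 and -0.18. None was called in these smaller sets. Without DQD replicate A none of the 3 was called (adjusted p = 0.105, 0.106 and 0.146), and no gene on the array was called in that comparison. Without WT replicate A, the array with the lowest correlations to the others, Snai1 (adjusted p = 0.0513) and Zeb1 (adjusted p = 0.0788) were not called.

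**Figure D4:**
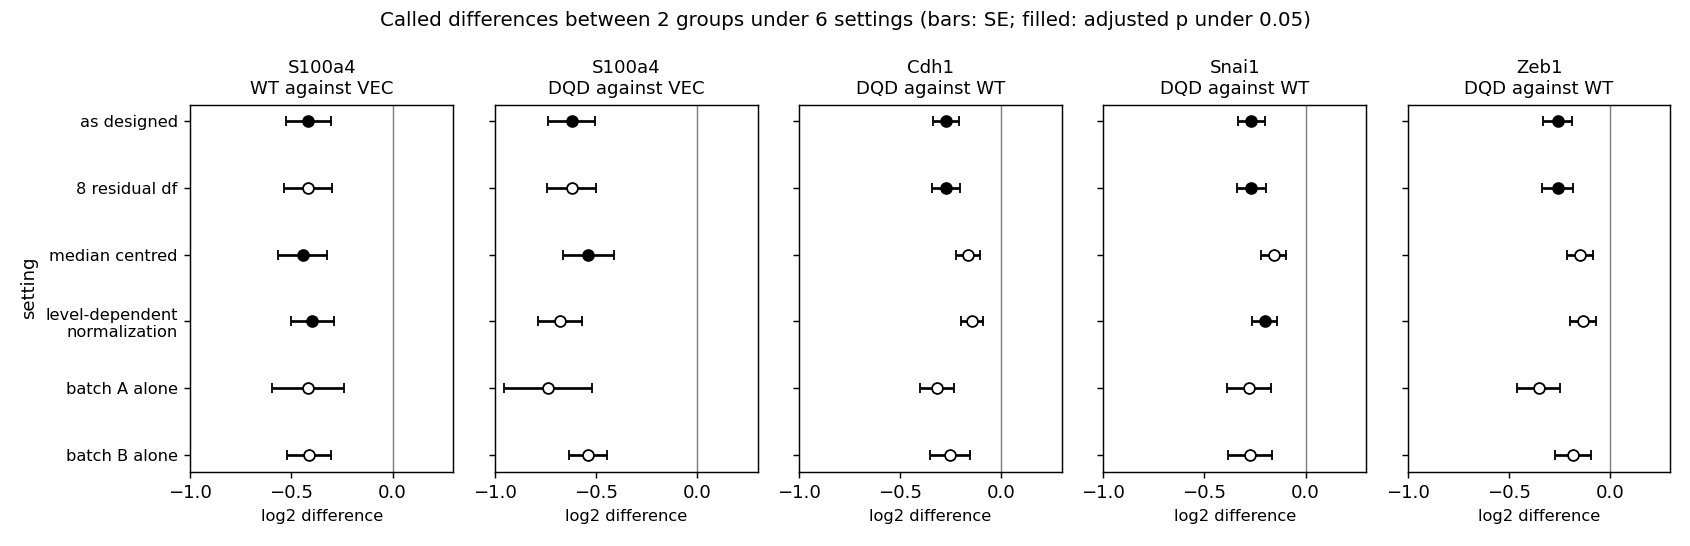
The 5 called differences of single genes between 2 groups under 6 settings, as log2 difference with its SE; filled points have an adjusted p under 0.05. All points lie below 0, none is filled in either batch alone, S100a4 is open with 8 residual degrees of freedom, Cdh1, Snai1 and Zeb1 are open with median centring, and with level-dependent normalization only S100a4 in WT and Snai1 are filled.

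AQA and F191G were also set against WT. None of the 9 genes was called in AQA against WT, with 0.726% of all genes called, or in F191G against WT, with 7.13% called. Zeb1 came nearest in both, at -0.28 in AQA (SE 0.0692, limma adjusted p = 0.0560) and -0.23 in F191G (SE 0.0709, adjusted p = 0.0595). By an unadjusted p under 0.05, 1 of the 9 passed in AQA against WT (Zeb1, beside 25% of all genes) and 2 in F191G against WT (Zeb1 and Cdh1, beside 27.7%). Cdh1 differed by -0.18 in F191G (adjusted p = 0.0874). Groups did not overlap for 4 of 9 genes in AQA, beside 30% of all genes, and for 2 of 9 in F191G, beside 34.4%. These comparisons share the WT arrays with DQD against WT, and those with VEC share the VEC arrays.

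Among the 29 other regulators, 4 rose and 5 fell in DQD against WT (31% of the list, beside 24.5% of all genes), or 3 and 4 with 8 residual degrees of freedom, beside 17.1%. None rose and 3 fell in F191G against WT (10.3% of the list, beside 7.13% of all genes), and with 8 residual degrees of freedom none was called, beside 0.606%. Sox4 fell by 0.86 in DQD (adjusted p = 0.0094) and by 0.80 in F191G (adjusted p = 0.0272, and 0.0522 with 8 residual degrees of freedom), Ddr2 by 0.43 and 0.32 (0.0674 in F191G with 8), and Tcf4 by 0.46 in each (0.0562 in F191G with 8). Of the epithelial genes, 2 rose and 7 fell in DQD (23.7% of the list, about the 24.5% of all genes), or 1 and 4 with 8 residual degrees of freedom, among them the junction gene Jup (-1.11, adjusted p = 0.0145) and the polarity gene Crb3 (-0.47, adjusted p = 0.0219). Of the mesenchymal genes, 5 rose and 6 fell (23.9%, again about the share of all genes), or 2 and 2 with 8 residual degrees of freedom. The median difference was -0.16 over the epithelial list and -0.08 over the mesenchymal list, beside -0.07 over all genes.

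Among themselves the 9 genes varied in small groups over the 15 arrays. Snai1 went with Cdh2 (r = 0.86) and with Cdh1 (r = 0.85), and Cdh1 with Cdh2 (r = 0.73), while Zeb2 ran against S100a4 (r = -0.63) and Snai1 (r = -0.58). After the level-dependent normalization the first 3 were 0.66, 0.58 and 0.38, and the last pair -0.63 and -0.33. The arrays share their groups, batches and adjustment, and these values are descriptions. The genes most like Snai1 over the arrays were Serp2 (r = 0.97), Rasa4 (r = 0.95) and Car7 (r = 0.95), and those most like Cdh1 were Atcay (r = 0.96), Gjb2 (r = 0.95) and Trim67 (r = 0.94). For Zeb1 they were Ikzf5, Marchf8 and Gpsm1, each at r = 0.93 to 0.94.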

How the data were processed

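Single-colour expression arrays of 15 samples were used, in 5 groups of 3. The deposited values are log2 values of 23811 probe sets, made by the authors with RMA (background correction, quantile normalization and probe set summary), and limma is also named, per the submitters' processing notes. Tool versions, any filter on probe sets and the form of the Twist1 normalization that the design text names were not given in the sources used. With 3 arrays a group, precision is limited by their number. In the platform annotation, 20852 probe sets had 1 gene symbol, 1440 had several and 1519 had none listed. The probe set with the highest mean was kept for each symbol, which left 19297 genes with no filter on dim values. Array correlations ran from 0.969 to 0.998, with a lowest value of 0.990 without WT replicate A.

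Group and batch (8 arrays in batch A, 7 in batch B) entered a linear model of all arrays (limma 3.58.1, R 4.3.3), and p-values were adjusted by Benjamini-Hochberg over all genes for each of 9 comparisons. The fit was tested on simulated data. Because a further term was found to have been removed from the deposited values, the model was also run with that term (8 residual degrees of freedom). The term was found from the singular values of the centred table, which spans 12 dimensions of a possible 14. Its weights were positive for every array labelled B and negative for every array labelled A, up to an arbitrary overall sign. Other alternatives were no batch term, the replicate letter as a block, the Twist1 value as a covariate, median centring, the dimmest 33.3% of genes left out, every probe set in place of 1 per gene, robust moderation with a variance trend, each batch alone and each array left out. A level-dependent normalization (cyclic loess), and its use with the further term, were added after the data were seen. The genes and lists were chosen with earlier results of these data known. The genes named are the 9, Twist1, up to 3 called genes of a list with the smallest p in a comparison, and the 3 genes most like each member by Pearson's r over the 15 arrays. Markers of the cell type are also named. Cd44 falls outside that rule and was named after its values were seen. Figures were drawn with matplotlib 3.10.9.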

Additional observations from a re-analysis of the deposited data

Results flagged for a closer look

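The effects of DQD and WT on 3 of the 9 genes differed by a test of the difference itself (DQD against WT, limma). The differences on the log2 scale were -0.27 for Cdh1 (adjusted p = 0.0155), -0.27 for Snai1 (adjusted p = 0.0184) and -0.26 for Zeb1 (adjusted p = 0.0242), with all 3 DQD arrays below all 3 WT arrays for each gene. In this comparison 24.5% of all genes were called, and the median gene of middle level differed by -0.11. Median centring moved the 3 differences to -0.16, -0.16 and -0.15 and ended the calls (adjusted p = 0.0658, 0.0818 and 0.122). After level-dependent normalization Snai1 alone of the 3 was called (adjusted p = 0.0392), and not with the further removed term added (adjusted p = 0.0652).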

How the results depend on the processing

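Counts of calls (limma, adjusted p under 0.05) are given in the order WT, AQA, DQD and F191G against VEC, AQA, DQD and F191G against WT, the 4 forms against VEC, and any difference among the 5 groups. As fitted in the report, the genes called were 2466, 170, 157, 19, 140, 4735, 1375, 228 and 1941, of which 1, 0, 1, 0, 0, 3, 0, 1 and 1 were among the 9. Without the batch term they were 3188, 413, 1444, 86, 1501, 6231, 2908, 668 and 4865, with 2, 0, 4, 0, 1, 3, 2, 1 and 5 of the 9. With the replicate block they were 1523, 25, 1, 0, 0, 2646, 251, 24 and 149, with 0, 0, 0, 0, 0, 1, 0, 0 and 0 of the 9. With the Twist1 value as a covariate they were 17, 3, 1, 1, 0, 4200, 467, 3 and 111, with 0, 0, 0, 0, 0, 3, 0, 0 and 0 of the 9. With median centring they were 2183, 117, 390, 8, 0, 4811, 1601, 291 and 2649, with 1, 0, 2, 0, 0, 2, 0, 0 and 1 of the 9. Without the dimmest genes (the lowest of 3 equal groups by mean level), 22.7%, 1.56%, 1.48%, 0.14%, 6.47%, 36.7%, 15.7%, 2.16% and 19.6% of the 12864 genes left were called (832 genes in AQA against WT), with 2, 0, 1, 0, 1, 3, 1, 1 and 3 of the 7 members left. Over all probe sets they were 2691, 178, 313, 20, 163, 5113, 1434, 273 and 2162, with 1, 0, 1, 0, 0, 3, 0, 1 and 1 of the 9. With a variance trend and robust moderation they were 2329, 155, 53, 21, 140, 4648, 1193, 193 and 1901, with 1, 0, 1, 0, 0, 3, 0, 1 and 1 of the 9. In batch A alone they were 0, 0, 0, 0, 0, 0, 0, 0 and 0, with 0, 0, 0, 0, 0, 0, 0, 0 and 0 of the 9. In batch B alone they were 293, 0, 46, 51, 74, 330, 14, 64 and 65, with 0, 0, 0, 0, 0, 0, 0, 0 and 0 of the 9. With the further removed term (8 residual degrees of freedom) they were 1595, 23, 1, 4, 0, 3300, 117, 56 and 151, with 0, 0, 0, 0, 0, 3, 0, 0 and 0 of the 9. After level-dependent normalization they were 2569, 214, 2, 11, 221, 3283, 1260, 244 and 1700, with 1, 0, 0, 0, 0, 1, 0, 1 and 1 of the 9. After that normalization with the further term they were 1734, 27, 1, 4, 0, 2050, 175, 59 and 238, with 1, 0, 0, 0, 0, 0, 0, 0 and 0 of the 9. Leaving out each array in turn gave ranges of 128 to 3261, 0 to 433, 1 to 616, 0 to 42, 0 to 2411, 0 to 5353, 0 to 2952, 3 to 416 and 262 to 2870 genes, and of 0 to 1, 0 to 1, 0 to 1, 0 to 0, 0 to 1, 0 to 3, 0 to 1, 0 to 1 and 0 to 1 of the 9. The cause of these shifts was not tested.

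Whether the letters A, B and C pair the arrays cannot be told from these values. Same-letter arrays had correlations of their deviations from the group means from -0.85 to 0.22, with 6 of 30 above 0.1, but these were computed after a direction that separates letter A from letter B had been removed from the values. With the letters as a replicate block, Cdh1 kept its call in DQD against WT, while Snai1 (-0.23, adjusted p = 0.0566), Zeb1 (-0.27, adjusted p = 0.0525) and S100a4 in WT against VEC (-0.42, adjusted p = 0.0536) did not. S100a4 also lost its calls in DQD against VEC (adjusted p = 0.201), for the 4 forms (0.104) and among the 5 groups (0.0877). Over 27 alternatives, 24 planned and 3 added after the data were seen, 2063 of 2169 values of the 9 genes kept their side of the threshold, 83 lost a call, 23 gained one and 0 called values changed direction. Of 1928 differences, 95 that were called in neither fit changed sign. Many alternatives leave a given difference unchanged or nearly so, so these counts are not of separate checks. Cdh2 and Snai2 have no value with the dimmest genes left out.

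The S100a4 calls were the least stable: in WT against VEC the adjusted p ran from 0.0143 to 0.349 over the alternatives, with 18 of 27 called, and in DQD against VEC from 0.0160 to 0.599, with 10 of 27 called. For the 4 forms together S100a4 was called in 8 of 27, and without VEC replicate A its difference was -0.30 in place of -0.43. In DQD against WT, Cdh1 was called in 21 of 27 (adjusted p from 0.00669 to 0.220), Snai1 in 20 (0.00822 to 0.221) and Zeb1 in 19 (0.0119 to 0.281). The number of arrays limits all of these, and signal over background is not given in the values used.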
